A study of Mus musculus with 9 samples.

Results

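The 10 genes described here were the TRAF adaptors Traf1, Traf2, Traf3, Traf5 and Traf6 and the NF-kB feedback and survival genes Tnfaip3, Tnip1, Birc2, Birc3 and Cflar. They were taken by gene symbol from a table of 54532 genes measured by bulk RNA-seq of dendritic cells sorted from mouse spleens. All 10 were among the 12746 genes that passed the filter on low values (1 FPKM or more in 3 or more libraries), and none was near the detection limit, since the fewest reads on any of them in any library were 174, on Traf5 in T-DC sample 2.

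The samples formed 3 groups of 3. N-mDCs were mature conventional dendritic cells (cDCs) from the spleens of healthy C57BL/6 mice. T-mDCs were mature cDCs from mice with T cell acute lymphoblastic leukemia (T-ALL), and T-DCs were the CD11c+ cells with low surface MHCII that were sorted from the spleens of such mice. The leukemia was driven by a retrovirus that carried the active intracellular part of Notch1 in bone marrow progenitors, and GFP+ leukemia cells were passed to mice that had not been irradiated. T-DCs were selected for low MHCII, and all 3 groups differ from one another in disease, in sort gate or in both: T-DCs and N-mDCs differ in both, which cannot be told apart in that comparison, T-DCs and T-mDCs in the gate, and T-mDCs and N-mDCs in the disease. The labels do not say whether the samples of a group came from separate mice, so p-values measure only the spread between these samples.

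Members of the TNF receptor family have no enzyme of their own, and on binding their ligands they gather TRAF proteins, which in turn carry the ubiquitin ligases cIAP1 and cIAP2 (encoded by Birc2 and Birc3) to the receptor. The ubiquitin chains made there start the kinases that free NF-kB, and NF-kB in turn switches on several of its own brakes, among them the ubiquitin-editing enzyme A20 (Tnfaip3), as well as Traf1, Birc3 and Cflar. In dendritic cells this route is best known downstream of CD40 and of Toll-like receptors, where it accompanies maturation.

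Values are FPKM, the reads on a gene per kilobase of its length, divided by a size chosen per library, so levels can be compared between genes as well as between libraries. Where 3 values are given for a group, they stand in the order of samples 1 to 3. Libraries held 15360815 to 18440913 reads on genes. The 9 dendritic cell markers (such as Itgax, Zbtb46 and Xcr1) were each at 1 FPKM or more in all 9 libraries, but their summed level was 711, 336 and 189 FPKM in T-DC samples 1 to 3, against 655 to 758 in N-mDCs and 722 to 802 in T-mDCs. In T-DC sample 1 most of that sum was Sirpa, at 404 FPKM against 195 to 244 in N-mDCs and 124 to 230 in T-mDCs. Without Sirpa the sum was 307, 159 and 88.2 FPKM in T-DCs, 438 to 563 in N-mDCs and 492 to 673 in T-mDCs. Each of the other 8 markers was lower in every T-DC sample than in every N-mDC sample. The sum also hides differences between the mature groups. All T-mDC samples lay above all N-mDC samples for Xcr1 (25.4 to 63.8 FPKM against 11.4 to 18.9) and Clec9a (40.3 to 66.8 against 30.2 to 38.4). They lay under them for Clec10a (4.50 to 7.29 against 10.6 to 17.1), and the remaining markers overlapped. Whether the mix of cDC types differed was not tested. T-DC samples 2 and 3 stood apart from T-DC sample 1: hemoglobin genes took 3.82% and 3.005% of their reads, against 0.042% in T-DC sample 1, 0.007% to 0.405% in N-mDCs and 0.001% to 0.014% in T-mDCs. The summed level of 6 neutrophil markers was 3757 and 1275 FPKM in these 2 libraries and 8.19 FPKM in T-DC sample 1, against 55.0 to 634 in N-mDCs and 3.45 to 13.2 in T-mDCs. Markers of T-lineage cells (7 genes, 1.99 to 30.4 FPKM in sum), B cells (6 genes, 31.3 to 89.1) and NK cells (5 genes, 3.79 to 18.3) gave low sums in T-DCs, against 27.1 to 53.1, 209 to 283 and 124 to 169 FPKM in N-mDCs and 6.70 to 9.19, 49.7 to 181 and 22.4 to 33.6 in T-mDCs. The 7 macrophage and monocyte markers summed to 2441, 990 and 629 FPKM in T-DC samples 1 to 3, 1210 to 2673 in N-mDCs and 375 to 1043 in T-mDCs. T-DC sample 1 was the highest of all libraries for Adgre1 (281 FPKM), Csf1r (609) and Mertk (57.0), but not for C1qa, C1qb, Ly6c2 or Ccr2. The 4 plasmacytoid markers summed to 102 to 149 FPKM in T-DCs, 186 to 430 in N-mDCs and 55.9 to 90.8 in T-mDCs. The sort used surface MHCII protein. The RNA of 5 MHCII genes (H2-Ab1, H2-Aa, H2-Eb1, Cd74 and Ciita) summed to 654 to 2595 FPKM in T-DCs, 21203 to 30163 in N-mDCs and 13588 to 19533 in T-mDCs. T-mDC samples 2 and 3 were closer to each other than any other pair of one group (chi-square per gene 1.85, against 7.77 or more for every other such pair and 1 under pure counting noise), and they were kept as separate samples. Fewer cells of a type and less RNA per cell cannot be told apart in such bulk samples.

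NF-kB binds a short site known as the kB site, and the 250 bases before each RefSeq start site (build GRCm38.p6) were searched on both strands for its consensus. All 10 genes had at least 1 such window, and Traf3, Tnfaip3 and Tnip1 (3 of 10) held a match, while 4.46% of all 27025 genes with a window did. The windows of these genes are shown 5′ to 3′ on the gene's own strand with the matches in capitals, beside that of Traf1, which had the largest difference between groups and no match. The Traf1 window is chr2:34961773-34962022 (minus strand), that of Traf3 is chr12:111166120-111166369 (plus strand), that of Tnfaip3 is chr10:19015411-19015660 (minus strand) and that of Tnip1 is chr11:54962941-54963190 (minus strand).
Traf1: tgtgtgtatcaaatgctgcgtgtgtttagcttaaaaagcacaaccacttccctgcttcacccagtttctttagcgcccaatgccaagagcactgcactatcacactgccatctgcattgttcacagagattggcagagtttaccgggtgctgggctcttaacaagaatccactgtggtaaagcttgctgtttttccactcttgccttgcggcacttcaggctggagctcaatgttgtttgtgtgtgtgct
Traf3: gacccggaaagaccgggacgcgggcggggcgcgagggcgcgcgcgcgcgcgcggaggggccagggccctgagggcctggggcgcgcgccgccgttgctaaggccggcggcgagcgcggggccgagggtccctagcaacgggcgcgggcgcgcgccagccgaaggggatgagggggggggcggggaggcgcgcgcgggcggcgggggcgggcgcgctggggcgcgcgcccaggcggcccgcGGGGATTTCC
Tnfaip3: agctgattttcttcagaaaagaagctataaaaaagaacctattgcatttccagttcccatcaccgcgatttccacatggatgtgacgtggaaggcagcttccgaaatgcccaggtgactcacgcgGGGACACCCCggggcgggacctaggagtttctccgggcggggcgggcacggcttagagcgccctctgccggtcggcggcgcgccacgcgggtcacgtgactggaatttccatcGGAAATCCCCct
Tnip1: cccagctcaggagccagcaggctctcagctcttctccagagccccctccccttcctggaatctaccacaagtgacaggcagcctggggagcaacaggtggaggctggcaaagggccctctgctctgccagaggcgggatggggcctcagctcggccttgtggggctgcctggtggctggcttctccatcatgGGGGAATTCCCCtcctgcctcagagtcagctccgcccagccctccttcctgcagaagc
The match of Traf3 began 10 bases before the start site. Tnfaip3 had 2 matches, beginning 125 and 12 bases before it, and none in the window of its other RefSeq start. The capitals of Tnip1 cover 3 overlapping matches, beginning 58, 57 and 56 bases before the start. A match is a run of letters and was not tested for binding, and its absence from the other 7 genes says only that these letters are not in this window.

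The 10 genes lay in the upper part of the range of expressed genes in N-mDCs and were spread more widely in T-DCs. In N-mDCs, the mean FPKM of Tnfaip3 was above that of 97.6% of tested genes, Birc3 above 93.4%, Traf1 above 92.3% and Traf5, the lowest of the 10, above 52.1%. In T-DCs, Tnip1 (89.0%) and Tnfaip3 (85.7%) held the highest places, and Traf1 was above 44.3% of genes. T-mDCs kept Tnfaip3 (95.9%), Birc2 (94.5%), Birc3 (94.4%) and Traf1 (94.1%) near the top. The mean FPKM was highest in T-mDCs, then N-mDCs, then T-DCs for 7 genes, highest in N-mDCs and lowest in T-DCs for Traf5 and Tnfaip3, and highest in T-DCs for Tnip1 alone, although the gaps of Tnip1 did not exceed the spread between samples.

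**Figure D1:**
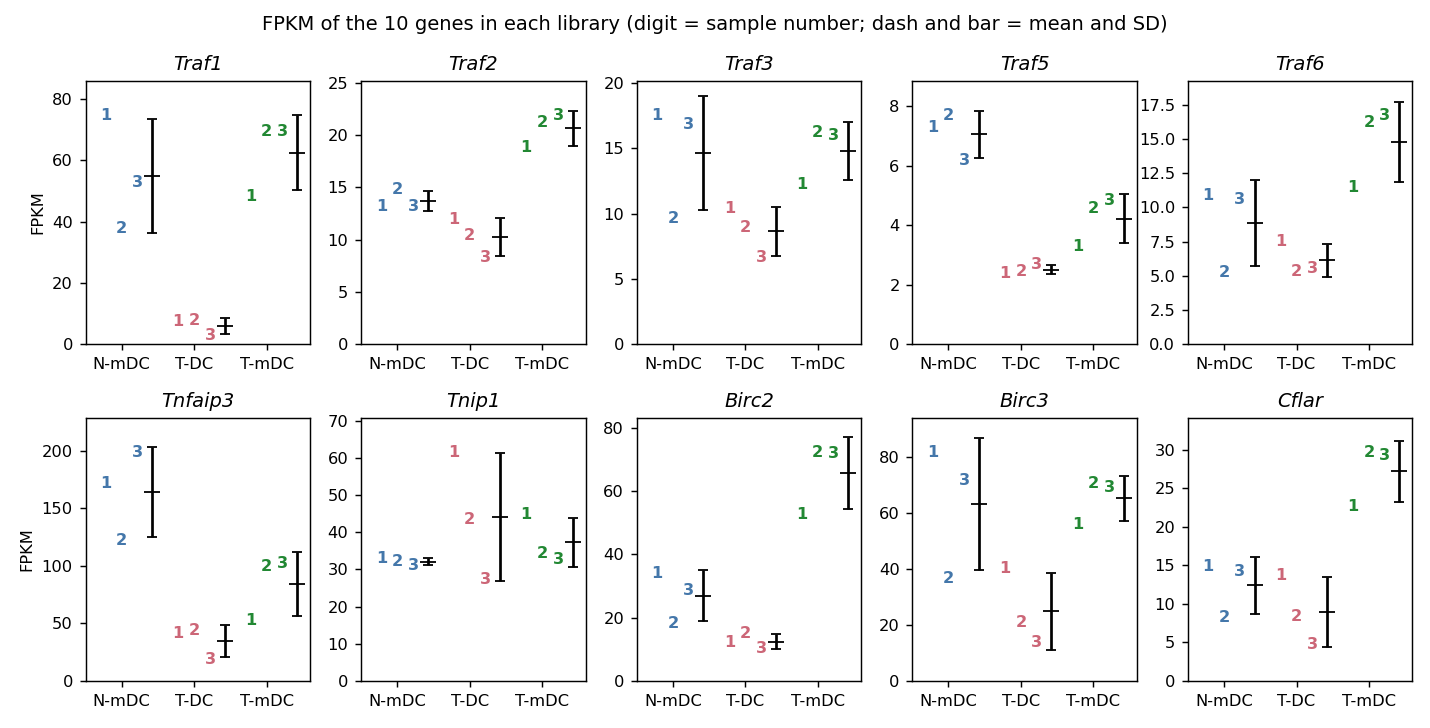
FPKM of each of the 10 genes (vertical axis, linear, from 0) in the 3 N-mDC, 3 T-DC and 3 T-mDC libraries (horizontal axis); each digit is a library placed at its value by sample number, and the dash with its bar is the group mean with SD. The 3 T-DC values of Traf1 lie between 2.88 and 7.68 FPKM, far under the other groups, whereas those of Tnip1 run from 27.4 to 61.6 FPKM across both.

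In T-DCs, 4 of the 10 genes were called lower against N-mDCs at a limma adjusted p under 0.05: Traf1, Tnfaip3, Traf5 and Birc2. None was higher, also at an unadjusted p under 0.05 or with voom on whole reads, although a fit with array weights, which did not converge, called 1 higher. Of all tested genes, 10.3% were called lower and 6.10% higher in this comparison. The median difference of the 10 was −0.85 on the log2(FPKM + 1) scale, against 0.05 over all tested genes. In 5 of the 10 (the same 4 and Traf2), all T-DC samples lay under all N-mDC samples, as did those of 16.4% of tested genes, while 16.0% lay above. With T-DC sample 1 as the only T-DC sample, assumed to vary as the other groups do, 2 genes were called lower, Traf1 and Traf5, and the same 2 were called with red cell genes as a covariate, where 3.55% and 3.33% of tested genes were called lower. Without T-DC sample 1 there were 7, with Traf2, Traf3 and Birc3 added, and the share of all tested genes called lower rose to 19.0%.

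Against T-mDCs, the mature cells of the same disease, 6 of the 10 genes were lower in T-DCs: Traf1, Birc2, Cflar, Birc3, Traf6 and Traf2. The background was 8.79% of tested genes called lower and 5.44% called higher. Again none of the 10 was higher, at an unadjusted p under 0.05 or with voom either, and the fit with array weights called 1. Their median difference was −1.22, against 0.07 over all tested genes, and in 9 of 10, all but Tnip1, every T-DC sample lay under every T-mDC sample (18.1% of all tested genes, with 16.8% above). Only Traf1 and Birc2 kept the call without T-mDC sample 2, without T-mDC sample 3, with these libraries averaged into 1, or with T-DC sample 1 as the only T-DC sample, so each of these counts was 2 of 10, where 3.51% to 3.62% of tested genes were called lower. Without T-DC sample 2 the count was 3 (5.02% of tested genes), and without T-DC sample 1 it was 8 (16.8%). With red cell genes as a covariate no gene of the 10, and none of the 12746, passed the adjusted threshold of limma, where 1716 had an unadjusted p under 0.05. The mean log2(FPKM + 1) of 8 red cell genes was 4.99, 11.2 and 11.1 in T-DC samples 1 to 3. It was 2.41 to 6.77 in N-mDCs and 1.12 to 3.38 in T-mDCs, so T-DC sample 1 lay within the N-mDC range. The part of red cell genes in the result was not tested beyond that fit.

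T-mDCs and N-mDCs, the mature cells of leukemic and healthy mice, differed in 1 of the 10 genes, Birc2, which was higher in T-mDCs, where 0.690% of tested genes were called higher and 1.52% lower. None was called lower, also with voom (2 with array weights), and 2 (Traf5 and Tnfaip3) had an unadjusted p under 0.05 in that direction. The groups did not overlap for 4 genes that lay above (Birc2, Cflar, Traf6 and Traf2, where 19.3% of tested genes did) and for 2 that lay under (Traf5 and Tnfaip3, where 15.7% did). The median difference was 0.21 in the 10 and 0.03 in all tested genes. The 3 comparisons share their samples, so they are not independent of one another.

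**Figure D2:**
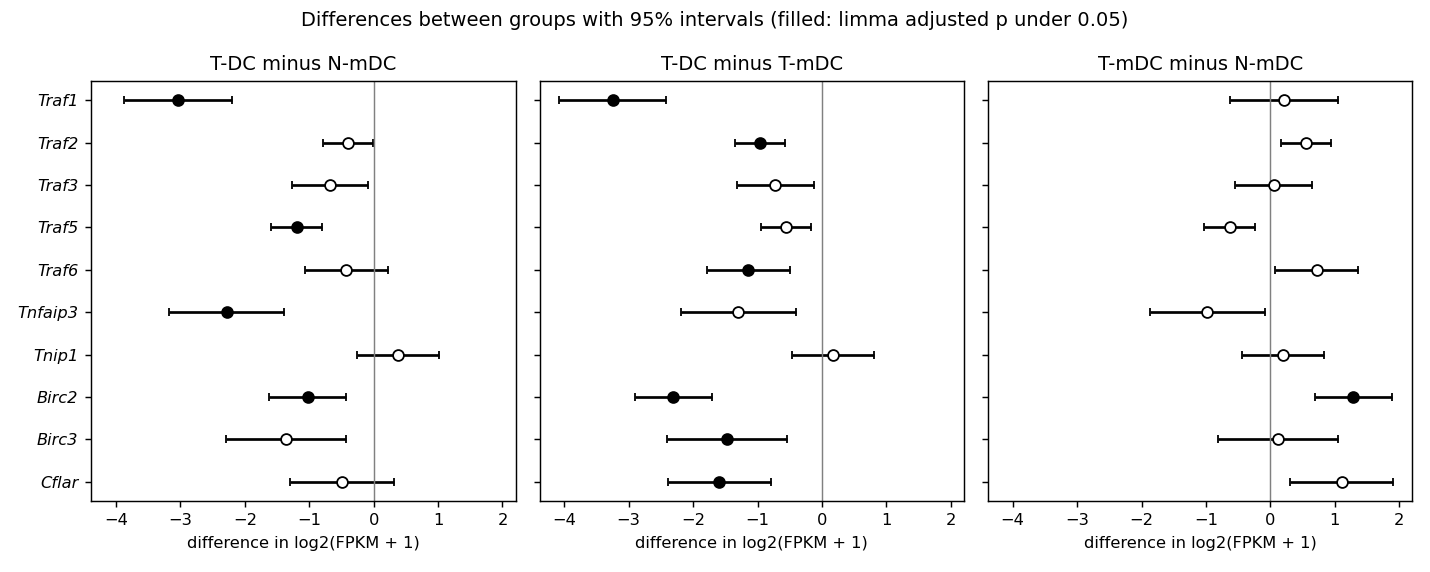
Difference in log2(FPKM + 1) with its 95% interval (horizontal axis) for each of the 10 genes (vertical axis) in 3 panels, T-DC minus N-mDC, T-DC minus T-mDC and T-mDC minus N-mDC; filled points passed the limma adjusted p of 0.05. All points but those of Tnip1 lie left of 0 in the first 2 panels, and Birc2 is the 1 filled point in the last, at 1.28.

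Traf1 (ENSMUSG00000026875, chr2:34941750-34961772, minus strand, build GRCm38) encodes a TRAF that lacks the RING domain of its relatives, pairs with TRAF2 and is itself switched on by NF-kB. Its level was 74.6, 37.6 and 52.6 FPKM in N-mDCs, 7.39, 7.68 and 2.88 in T-DCs and 48.2, 69.5 and 69.4 in T-mDCs. Every T-DC sample was under every sample of the other groups, and N-mDCs and T-mDCs overlapped. The mean in T-DCs, 5.98 ± 2.69 FPKM (SD, n = 3), was 9.18-fold under that in N-mDCs (55.0 ± 18.6), a difference of −3.04 (SE 0.37, limma adjusted p = 0.00177), and 10.4-fold under that in T-mDCs (62.4 ± 12.2), a difference of −3.25 (SE 0.37, limma adjusted p = 0.00197). The call against N-mDCs held in all 22 alternatives, with differences from −3.31 to −2.43, and that against T-mDCs in 21 of 22, all but the fit with red cell genes. Between the mature groups the difference was 0.21 (95% interval −0.62 to 1.05, limma adjusted p = 0.809). No kB match lay in its window shown above.

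Traf2 (ENSMUSG00000026942, chr2:25517982-25546940, minus strand) encodes the adaptor that binds most receptors of the family and brings in the cIAPs. It stood at 13.2, 14.8 and 13.1 FPKM in N-mDCs, at 11.9, 10.4 and 8.31 in T-DCs and at 18.8, 21.2 and 21.9 in T-mDCs. The 3 groups did not overlap, with T-DCs lowest and T-mDCs highest. Only the widest gap passed the test: Traf2 was 2.02-fold lower in T-DCs (10.2 ± 1.82 FPKM) than in T-mDCs (20.6 ± 1.63), a difference of −0.96 on the log2 scale (SE 0.17, limma adjusted p = 0.00928). That call was lost without T-mDC sample 2 or without T-mDC sample 3 (differences over the 9 fits without 1 sample −1.07 to −0.83). Against N-mDCs (13.7 ± 0.934 FPKM) the difference was −0.40 (SE 0.17, limma adjusted p = 0.133) and was called without T-DC sample 1 (−0.51), and T-mDCs stood 0.56 above N-mDCs (limma adjusted p = 0.148). The level of Traf1 was 5.66, 2.54 and 4.004 times that of Traf2 in N-mDCs and 2.57, 3.27 and 3.17 times in T-mDCs, but 0.619, 0.740 and 0.347 times in T-DCs.

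Traf3 (ENSMUSG00000021277, chr12:111166370-111267153, plus strand) encodes the adaptor that, with TRAF2 and the cIAPs, keeps the kinase NIK of the noncanonical NF-kB route at low levels. The levels were 17.5, 9.66 and 16.8 FPKM in N-mDCs, 10.4, 8.91 and 6.61 in T-DCs and 12.3, 16.3 and 16.0 in T-mDCs. T-DCs lay under all T-mDC samples, while N-mDC sample 2 fell within the T-DC range. No comparison passed the test: the difference of T-DCs was −0.68 from N-mDCs (95% interval −1.27 to −0.08, limma adjusted p = 0.105) and −0.73 from T-mDCs (−1.32 to −0.13, limma adjusted p = 0.0998). Without T-DC sample 1 both were called (−0.81 and −0.86), and without N-mDC sample 2 the first was (−0.93). The mature groups had means of 14.7 ± 4.35 and 14.8 ± 2.23 FPKM.

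Traf5 (ENSMUSG00000026637, chr1:191997205-192092559, minus strand) encodes a close relative of TRAF2 that binds CD40 and other co-stimulatory receptors. By group mean it was the least expressed of the 10, at 7.30, 7.70 and 6.19 FPKM in N-mDCs, 2.38, 2.46 and 2.70 in T-DCs and 3.28, 4.57 and 4.83 in T-mDCs. The groups did not overlap, and all its N-mDC samples lay above all others. T-DCs (2.51 ± 0.163 FPKM) were 2.81-fold under N-mDCs (7.06 ± 0.783), a difference of −1.19 (SE 0.17, limma adjusted p = 0.00368) that was called in all 22 alternatives. T-mDCs (4.23 ± 0.829) stood between, with a difference of −0.56 for T-DCs against them (SE 0.17, limma adjusted p = 0.0631; called without T-mDC sample 1, at −0.70) and of −0.63 for T-mDCs against N-mDCs (SE 0.17, limma adjusted p = 0.112). The T-DC samples were close to each other, the highest being 1.13 times the lowest.

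Traf6 (ENSMUSG00000027164, chr2:101678429-101701669, plus strand) encodes a ubiquitin ligase that serves Toll-like and interleukin-1 receptors as well as CD40. Its values were 10.8, 5.24 and 10.5 FPKM in N-mDCs, 7.53, 5.32 and 5.51 in T-DCs and 11.4, 16.2 and 16.7 in T-mDCs. T-mDC samples lay above all others, and the T-DC samples lay within the range of N-mDCs, whose sample 2 was the lowest of all. Traf6 was 2.41-fold lower in T-DCs (6.12 ± 1.22 FPKM) than in T-mDCs (14.8 ± 2.92), a difference of −1.14 (SE 0.28, limma adjusted p = 0.0312), a call that was lost without T-DC sample 2 or 3 or T-mDC sample 2 or 3 and held in 13 of 22 alternatives (differences over the 9 fits without 1 sample −1.31 to −1.05). Against N-mDCs (8.87 ± 3.15) the difference was −0.43 (95% interval −1.07 to 0.22, limma adjusted p = 0.310), and between the mature groups it was 0.72 (0.07 to 1.36, limma adjusted p = 0.251).

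Tnfaip3 (ENSMUSG00000019850, chr10:19000910-19015657, minus strand) encodes A20, the inducible brake that removes and remodels ubiquitin chains on signalling proteins. It was the most expressed of the 10 in healthy cells, at 172, 122 and 199 FPKM in N-mDCs, against 41.6, 43.6 and 18.4 in T-DCs and 52.5, 99.1 and 102 in T-mDCs. The 3 groups followed each other without overlap, N-mDCs highest and T-DCs lowest. T-DCs (34.5 ± 14.0 FPKM) were 4.75-fold under N-mDCs (164 ± 39.2), a difference of −2.28 (SE 0.39, limma adjusted p = 0.00728). This call held in 20 of 22 alternatives and ended with red cell genes as a covariate (−1.71) and with T-DC sample 1 as the only T-DC sample (−1.93). Against T-mDCs (84.4 ± 27.7) the difference was −1.30 (SE 0.39, limma adjusted p = 0.0593) and was called without T-DC sample 1 (−1.48) or without T-mDC sample 1 (−1.61), and T-mDCs were −0.98 from N-mDCs (95% interval −1.87 to −0.09, limma adjusted p = 0.255). Its window shown above was the only one of the 10 with kB matches at 2 separate places.

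Tnip1 (ENSMUSG00000020400, chr11:54910785-54962917, minus strand) encodes ABIN1, a ubiquitin-binding partner of A20. It was at 33.0, 32.1 and 31.1 FPKM in N-mDCs, 61.6, 43.3 and 27.4 in T-DCs and 44.8, 34.4 and 32.7 in T-mDCs. T-DC samples spanned the range of both other groups, T-DC sample 1 being the highest library of all and T-DC sample 3 the lowest, while the N-mDC samples lay within a ratio of 1.06. It was the 1 gene of the 10 with a higher mean in T-DCs, by 0.37 over N-mDCs (95% interval −0.26 to 1.01, limma adjusted p = 0.369) and by 0.17 over T-mDCs (−0.46 to 0.81, limma adjusted p = 0.703), neither beyond the spread between samples. Without T-DC sample 1 the first difference was 0.10 and the second turned to −0.10, and without T-DC sample 3 the first was 0.67. Its window shown above held 3 overlapping kB matches.

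Birc2 (ENSMUSG00000057367, chr9:7818227-7837064, minus strand) encodes cIAP1, a ubiquitin ligase held by TRAF2. Its levels were 33.9, 18.1 and 28.6 FPKM in N-mDCs, 12.2, 14.9 and 10.3 in T-DCs and 52.5, 72.3 and 72.0 in T-mDCs. No groups overlapped, and it was the only one of the 10 that passed the test in all 3 comparisons. T-DCs (12.4 ± 2.33 FPKM) were 5.27-fold under T-mDCs (65.6 ± 11.3), a difference of −2.31 (SE 0.26, limma adjusted p = 0.00197) that held in 21 of 22 alternatives, all but the fit with red cell genes. They were 2.16-fold under N-mDCs (26.9 ± 8.02), a difference of −1.02 (SE 0.26, limma adjusted p = 0.0325), a call that held in 10 of 22 alternatives and was lost on leaving out sample 1 or 3 of N-mDCs, 2 or 3 of T-DCs or 2 or 3 of T-mDCs (differences −1.27 to −0.84). T-mDCs were 2.44-fold above N-mDCs, by 1.28 (SE 0.26, limma adjusted p = 0.0469). That last call held in 8 of 22 alternatives and in 1 of the 9 fits that left out a sample, the one without T-DC sample 1, with differences from 1.04 to 1.47.

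Birc3 (ENSMUSG00000032000, chr9:7848699-7873186, minus strand) encodes cIAP2, the NF-kB-inducible relative of cIAP1, and lies on the same strand as Birc2 and upstream of it, 11634 bases away. It was at 81.6, 36.6 and 71.3 FPKM in N-mDCs, 40.1, 20.8 and 13.6 in T-DCs and 55.9, 70.4 and 69.0 in T-mDCs. T-DC sample 1 was above N-mDC sample 2, and all T-DC samples were under those of T-mDCs. T-DCs (24.9 ± 13.7 FPKM) were 2.62-fold under T-mDCs (65.1 ± 8.03), a difference of −1.48 (SE 0.41, limma adjusted p = 0.0450). This call held in 9 of 22 alternatives and in 2 of the 9 fits that left out a sample (N-mDC sample 2, T-DC sample 1), with differences from −1.88 to −1.14, and with red cell genes as a covariate the difference was 0.01. Against N-mDCs (63.1 ± 23.6) it was −1.36 (95% interval −2.30 to −0.43, limma adjusted p = 0.0538) and was called without N-mDC sample 2 (−1.71) or without T-DC sample 1 (−1.77), and was −1.02 without T-DC sample 3, −0.56 with T-DC sample 1 as the only T-DC sample and −0.39 with red cell genes as a covariate. The mature groups differed by 0.11 (−0.82 to 1.05, limma adjusted p = 0.916).

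The neighbours Birc2 and Birc3 were also compared as a proportion. Birc3 made up 70.6%, 66.8% and 71.4% of their summed FPKM in N-mDCs, 51.5%, 49.3% and 49.0% in T-mDCs and 76.7%, 58.3% and 57.1% in T-DCs. All T-mDC shares lay under those of both other groups, and the T-DC shares lay on either side of the N-mDC range, with T-DC sample 1 apart from the other 2. These shares are a description and were not tested.

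Cflar (ENSMUSG00000026031, chr1:58711508-58758884, plus strand) encodes c-FLIP, a relative of the initiator caspases without their cutting activity that holds back death receptor signalling. Its level was 14.8, 8.19 and 14.1 FPKM in N-mDCs, 13.7, 8.40 and 4.75 in T-DCs and 22.6, 29.7 and 29.2 in T-mDCs. T-mDC samples were the highest, and T-DC samples 1 and 2 lay within the N-mDC range. Cflar was 3.04-fold lower in T-DCs (8.94 ± 4.49 FPKM) than in T-mDCs (27.2 ± 3.93), a difference of −1.59 (SE 0.35, limma adjusted p = 0.0209). That call held in 16 of 22 alternatives and was lost without T-DC sample 2, T-mDC sample 2 or T-mDC sample 3 (differences −1.93 to −1.25 over the 9 fits without 1 sample). The difference from N-mDCs (12.4 ± 3.64) was −0.49 (95% interval −1.29 to 0.31, limma adjusted p = 0.348) and became 0.17 with T-DC sample 1 as the only T-DC sample. T-mDCs stood 1.10 above N-mDCs (0.30 to 1.91, limma adjusted p = 0.162), a difference that was called without T-DC sample 1.

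The make-up of the TRAF family as a whole was described by the share of each of Traf1 to Traf7 in their summed FPKM, which was 150, 111 and 133 in N-mDCs, 62.2, 73.4 and 81.0 in T-DCs and 118, 150 and 151 in T-mDCs. The sum was lower in every T-DC sample than in every other sample. Traf1 held 49.7%, 33.9% and 39.6% of it in N-mDCs and 41.0%, 46.2% and 46.0% in T-mDCs, but 11.9%, 10.5% and 3.56% in T-DCs. Traf7, which has no TRAF domain, held 32.0%, 27.8% and 29.0% in T-DCs and 11.6% to 16.6% in the other 6 libraries, and its own level was 21.3 ± 1.91 FPKM in T-DCs, 17.3 ± 0.733 in N-mDCs and 18.9 ± 0.592 in T-mDCs. The share of Traf4 was 4.25% in T-DC sample 1 and 24.8% and 38.9% in T-DC samples 2 and 3, the libraries with the most hemoglobin reads, against 6.21%, 16.0% and 12.8% in N-mDCs and 2.53% to 3.65% in T-mDCs. Of those 2 libraries, T-DC sample 3 had the higher share of Traf4 and T-DC sample 2 the higher share of hemoglobin reads. The part of red cell RNA in these shares was not tested.

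**Figure D3:**
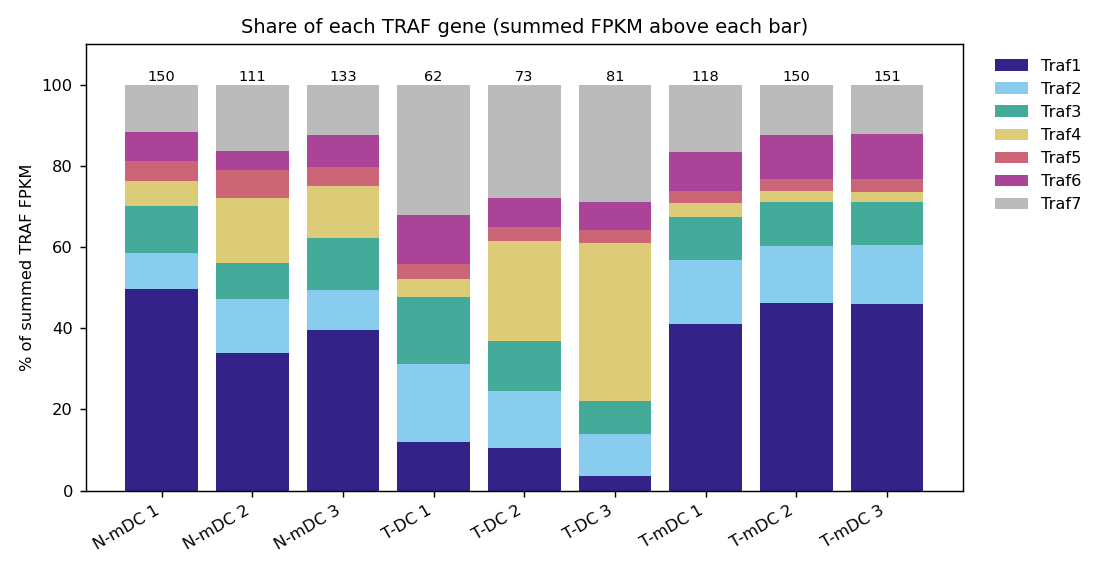
Share of Traf1 to Traf7 in their summed FPKM (vertical axis, percent, stacked bars from 0 to 100) in each of the 9 libraries (horizontal axis), with the summed FPKM above each bar. The Traf1 segment reaches 33.9% to 49.7% in the mature groups and at most 11.9% in T-DCs, and Traf4 is large in T-DC samples 2 and 3 alone among T-DCs.

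Across the 9 libraries the 10 genes were compared with one another on the log2(FPKM + 1) scale, as a description, since libraries share their group and red cell content. Traf3 and Birc3 had the highest Pearson r (0.97), followed by Traf6 and Cflar (0.94), Traf6 and Birc2 (0.93), Traf2 and Birc2 (0.92) and Traf1 and Birc3 (0.92). Traf5 ran most closely with Tnfaip3 (0.88), the other gene that was highest in healthy cells. Tnip1 was apart from all others, with r from −0.56 (Traf5) to 0.19 (Cflar). Such values were common in these samples: 221 tested genes had an r of at least 0.95 with Traf1, 151 with Birc3, 117 with Birc2, 81 with Tnfaip3 and 7 with Tnip1.

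The tested genes nearest to each of the 8 members called in a T-DC comparison, by Pearson r over the 9 libraries, were the following. Traf1 was nearest to Slamf7 (0.998), Ciita (0.996), the master regulator of the genes of MHCII, whose surface level the sort used, and Adam19 (0.996). Traf2 was nearest to Tlr3 (0.992), the receptor for double-stranded RNA, Vta1 (0.983) and Olfm1 (0.983). Traf5 was nearest to Sesn2 (0.987), the processed pseudogene Gm7665 (0.986) and Epcam (0.985). Traf6 was nearest to the repressor Rest (0.990), Trio (0.989) and Zfp62 (0.986), and Cflar to Sestd1 (0.986), Tlr9 (0.984) and Ric1 (0.984). Tnfaip3 was nearest to the phosphodiesterase Pde4b (0.992), Zbtb21 (0.988) and Sp110 (0.988). Birc2 was nearest to Adamts13 (0.996), Chst7 (0.994) and Insm1 (0.994), and Birc3 to Dnajb14 (0.997), the prostaglandin receptor Ptger4 (0.997) and Tns3 (0.996).

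The surrounding pathway was read from 5 lists. Of 13 tested ligands of the TNF family, T-DCs had 7 at a lower level than N-mDCs and 3 at a lower level than T-mDCs (median difference −1.11 and −0.43). The filter bears on these counts: Lta, Tnfsf4, Tnfsf8 and Fasl, 4 of the 7, reached 1 FPKM in no T-DC library and passed only through groups in which they were higher, as did Lta and Tnfsf4, 2 of the 3. None was called higher here or by voom, and 1 had an unadjusted p under 0.05 for a higher level in each comparison. Other fits did call ligands higher. Tnfsf15 was called against N-mDCs with quantile normalization or without T-DC sample 3. Tnfsf13 was called against T-mDCs with quantile normalization, a pseudocount of 0.1, only the 2 groups compared or without N-mDC sample 1. Array weights called 1 ligand higher against N-mDCs and 4 against T-mDCs, where 33.9% and 40.7% of all tested genes were. Tnfsf9, the ligand of 4-1BB, was at 12.2 ± 1.91 FPKM in N-mDCs, 0.942 ± 0.558 in T-DCs and 12.2 ± 1.95 in T-mDCs, and T-DCs differed by −2.80 from N-mDCs (limma adjusted p = 0.000696) and by −2.80 from T-mDCs (limma adjusted p = 0.00126). Lta, lymphotoxin alpha, was at 5.54 ± 1.86, 0.190 ± 0.125 and 16.4 ± 8.99 FPKM, and T-DCs differed by −2.43 from N-mDCs (limma adjusted p = 0.00857) and by −3.69 from T-mDCs (limma adjusted p = 0.00197). Tnfsf14 was called lower against N-mDCs (−1.83, limma adjusted p = 0.00158). Tnfsf4, the ligand of OX40, was called lower against N-mDCs (−1.11, limma adjusted p = 0.0203) and T-mDCs (−1.29, limma adjusted p = 0.0125), and its 3 T-DC values were at most 0.0909 FPKM. Tnf itself did not pass (−1.30, limma adjusted p = 0.0638 against N-mDCs). With T-DC sample 1 as the only T-DC sample, 2 ligands were lower in each comparison, Tnfsf9 in both, with Tnfsf14 against N-mDCs and Lta against T-mDCs. Leaving out T-DC sample 3 brought the count against N-mDCs to 4, as did leaving out N-mDC sample 1, and it was 2 with red cell genes as a covariate, which left 0 against T-mDCs. In the same order, these fits called 6.1%, 5.97% and 3.33% of all tested genes lower against N-mDCs. The fit with red cell genes called none of the tested genes lower against T-mDCs.

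Of 15 tested receptors, 5 were lower and 1 higher in T-DCs against N-mDCs, and 6 were lower and 1 higher against T-mDCs. Of all tested genes, 10.3% were called lower and 6.10% higher in the first comparison, and 8.79% and 5.44% in the second. The median of the receptors was −0.72 in the first comparison and 0.12 in the second. Against N-mDCs the lower count was 8 without T-DC sample 1, where 19.0% of all tested genes were called lower. Against T-mDCs the lower count was 3 (Cd40, Fas and Tnfrsf9) without T-mDC sample 2, without T-mDC sample 3 or with both averaged into 1, and 0 with red cell genes as a covariate. Of all tested genes, 3.57% to 3.62% were called lower in the fits that gave 3, and none in the last. Tnfrsf9 reached 1 FPKM in no T-DC library, so it passed the filter only through the mature groups. Cd40, the receptor by which T cells license dendritic cells, was at 23.9, 17.7 and 19.8 FPKM in N-mDCs, 1.95, 2.05 and 0.986 in T-DCs and 15.3, 29.3 and 30.7 in T-mDCs. No T-DC sample came near the others, and the difference was −3.03 from N-mDCs (limma adjusted p = 0.000845) and −3.26 from T-mDCs (limma adjusted p = 0.00126). Tnfrsf18 (−2.15, limma adjusted p = 0.00391) and Tnfrsf4 (−2.13, limma adjusted p = 0.00447) were the next largest against N-mDCs, and Tnfrsf9, which encodes 4-1BB (−2.14, limma adjusted p = 0.00197), and the death receptor Fas (−1.98, limma adjusted p = 0.00388) against T-mDCs. Tnfrsf14 was called higher in T-DCs than in N-mDCs (1.95, limma adjusted p = 0.0408), at 29.3, 112 and 106 FPKM in T-DCs against 24.9, 8.90 and 23.5, so that its 2 high values were those of the libraries with red cell RNA, and the call held in 8 of 22 alternatives. Tnfrsf21 was the receptor called higher against T-mDCs (0.89, limma adjusted p = 0.0438), a call that held in 9 of 22.

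The 29 tested adaptors, kinases and ubiquitin ligases next to the receptors had 2 lower and 2 higher against N-mDCs, 1 lower and 2 higher against T-mDCs, and medians of −0.02 and 0.03. Those shares, 6.90% lower and 6.90% higher in the first comparison and 3.45% and 6.90% in the second, were near or under those of all tested genes (10.3% and 6.10%, 8.79% and 5.44%). Malt1, the paracaspase of the CARD-BCL10 complex, was at 37.2 ± 15.1 FPKM in N-mDCs, 7.16 ± 2.79 in T-DCs and 32.9 ± 8.55 in T-mDCs, and was lower in T-DCs, with a difference of −2.19 from N-mDCs (limma adjusted p = 0.00841) and of −2.08 from T-mDCs (limma adjusted p = 0.0111). Neither call of Malt1 held with T-DC sample 1 as the only T-DC sample or with red cell genes as a covariate, and that against T-mDCs was also lost without T-mDC sample 2, without T-mDC sample 3 and with both averaged. Irak2 was lower against N-mDCs (−0.67, limma adjusted p = 0.0454), a call that was lost on leaving out any 1 library but T-DC sample 1. The kinase gene Ikbke rose from 0.979, 1.99 and 2.24 FPKM in N-mDCs to 18.0, 20.03 and 8.46 in T-DCs, with 3.80, 0.608 and 0.488 in T-mDCs. Irak3, which encodes the inactive kinase that restrains Toll-like receptor signalling, stood at 26.6, 21.4 and 11.1 FPKM in T-DCs, against 2.11 to 3.76 in N-mDCs and 9.86, 1.999 and 1.64 in T-mDCs. Every T-DC sample lay above every other sample for both genes, with differences of 2.54 and 2.33 from N-mDCs (limma adjusted p = 0.0110 and 0.0220) and of 2.79 and 2.15 from T-mDCs (limma adjusted p = 0.00841 and 0.0317). None of these 4 calls held with T-DC sample 1 as the only T-DC sample or with red cell genes as a covariate. Those of Ikbke held in all 9 fits without 1 library. Those of Irak3 were lost against N-mDCs on dropping T-DC sample 2 or any 1 library of N-mDCs, and against T-mDCs on dropping sample 2 of any group or sample 3 of either mature group.

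Of the 11 NF-kB subunits and inhibitors, T-DCs had 6 at a lower level than N-mDCs and 5 at a lower level than T-mDCs, with medians of −1.04 and −1.10 and none higher, also at an unadjusted p under 0.05 or with voom. Of all tested genes, 10.3% were called lower against N-mDCs and 8.79% against T-mDCs. Rel, the c-Rel subunit, was at 121, 49.3 and 133 FPKM in N-mDCs, 15.4, 13.2 and 5.47 in T-DCs and 33.0, 70.1 and 71.9 in T-mDCs. Relb, the subunit of the noncanonical route, was at 144, 84.0 and 94.7 FPKM in N-mDCs, 19.2, 14.4 and 8.43 in T-DCs and 110, 154 and 159 in T-mDCs. T-DC samples of both genes were under all other samples, with a difference of −3.03 for Rel (limma adjusted p = 0.00636) and −2.88 for Relb (limma adjusted p = 0.00151) against N-mDCs and of −2.29 for Rel (limma adjusted p = 0.0207) and −3.29 for Relb (limma adjusted p = 0.00143) against T-mDCs. The inhibitor genes Nfkbid (−2.67 against N-mDCs, limma adjusted p = 0.00228) and Nfkbie (−1.79 against T-mDCs, limma adjusted p = 0.0133) were lower as well. Rela, the main canonical subunit, differed by −0.54 against N-mDCs (limma adjusted p = 0.0552) and −0.35 against T-mDCs (limma adjusted p = 0.191), and Nfkbia, which encodes IkB-alpha, differed by −0.45 (limma adjusted p = 0.208) and −0.20 (limma adjusted p = 0.602) in the same order. With T-DC sample 1 as the only T-DC sample, the counts were 3 of 11 and 1 of 11, and with T-mDC samples 2 and 3 averaged into 1, or without either of them, the second was also 1 (Relb). Without T-DC sample 2 or 3 the second was 3, without T-DC sample 1 both were 9, and with red cell genes as a covariate they were 3 and 0. Of all tested genes, 19.0% and 16.8% were called lower without T-DC sample 1, and 3.33% and 0% with red cell genes.

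Other TRAF proteins, TRAF partners, IAPs and partners of A20 formed a list of 23 tested genes with medians of 0.06 and 0.02. Of these, 5 were called lower than in N-mDCs, where 10.3% of all tested genes were. They included Zc3h12a (−1.76, limma adjusted p = 0.00854), which encodes the RNase regnase, Cyld (−1.11, limma adjusted p = 0.0329), the other deubiquitinase brake of NF-kB, and Otulin (−0.87, limma adjusted p = 0.0281). That count fell to 2, Traf3ip2 and Zc3h12a, on dropping sample 2 or 3 of either leukemic group or sample 1 of N-mDCs, to 3 on dropping either other N-mDC library, to 2 (Zc3h12a and Traf4) with T-DC sample 1 as the only T-DC sample, and to 0 with red cell genes as a covariate. Against T-mDCs 4 were lower, among them Cyld (−1.09, limma adjusted p = 0.0381), Traf3ip2 (−0.92, limma adjusted p = 0.0106) and Trafd1 (−0.92, limma adjusted p = 0.0292), and 1 was higher, Mlkl (1.23, limma adjusted p = 0.0381), the effector of necroptosis. Without T-mDC sample 2, or without T-mDC sample 3, limma called 0 of the 23 lower against T-mDCs (6 had an unadjusted p under 0.05 with all samples), it called Traf3ip2 alone on dropping T-DC sample 2 or 3 or the first N-mDC library, also Otulin on dropping the third N-mDC library, and 8 on dropping T-DC sample 1. Mlkl was called in 2 of those 9 fits, the ones that dropped sample 1 of either leukemic group. Without T-DC sample 1, 16.8% of all tested genes were called lower against T-mDCs and 18.3% higher. The share lower was 3.57% to 3.62% in the fits that gave 0, and 5.02% to 7.56% in those that gave Traf3ip2 alone. In T-mDCs against N-mDCs, 2 ligands were called lower, Tnfsf14 (−1.40, limma adjusted p = 0.0177) and Fasl, which passed the filter only through N-mDCs and so had to be lower here. The lower receptor was Tnfrsf12a (−1.35, limma adjusted p = 0.0267), which voom did not call, and the higher one Fas (1.66, limma adjusted p = 0.0261). All 4 calls were lost without N-mDC sample 2, N-mDC sample 3, T-mDC sample 2 or T-mDC sample 3 and with the last 2 averaged, and that of Fas also without N-mDC sample 1. Of the other 3 lists no gene was called by limma or voom (at an unadjusted p under 0.05, 2 lower in each of the 3 lists and 1 higher, of NF-kB). Of all tested genes, 1.52% were called lower and 0.690% higher in T-mDCs than in N-mDCs.

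**Figure D4:**
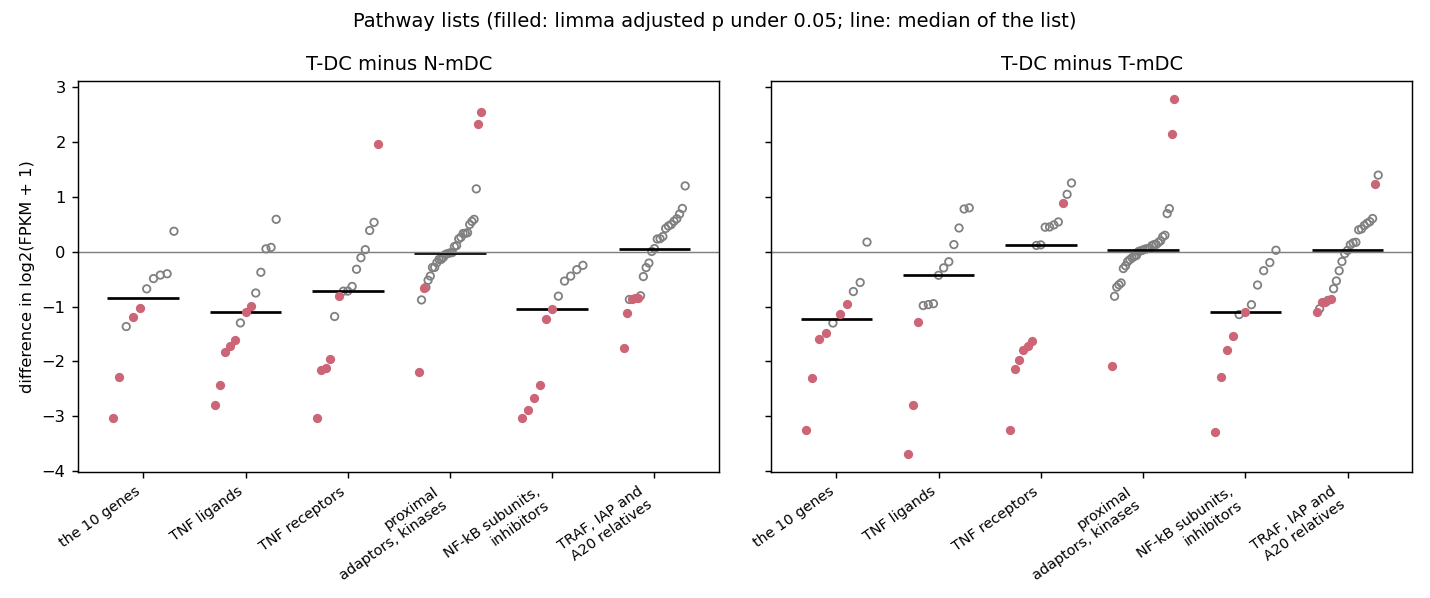
Difference in log2(FPKM + 1) (vertical axis) of each tested gene of the 10 and of the 5 surrounding lists (horizontal axis), T-DC minus N-mDC on the left and T-DC minus T-mDC on the right; filled points passed the limma adjusted p of 0.05 and lines are medians. The medians of the 10 genes (−0.85 and −1.22) and of the NF-kB list (−1.04 and −1.10) lie under 0 in both panels, and those of the adaptors and kinases (−0.02 and 0.03) lie at 0.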

How the data were processed

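RNA was extracted from sorted dendritic cells and sequenced as total RNA libraries, and the authors deposited FPKM per gene, with gene lengths, on the mouse build mm10 (GRCm38). The aligner and counter are not given in the sources used here. Whole reads were recovered from FPKM and gene length for 100% of values (within 0.01 of a read). Of the fits, only the voom alternative used them. They also gave the read counts, the hemoglobin shares and the chi-square values. Values were tested as log2(FPKM + 1) with limma 3.58.1 in R 4.3.3 (1 fit over 9 samples, empirical Bayes with trend), for 12746 genes at 1 FPKM or more in 3 or more libraries, and p-values were adjusted by Benjamini-Hochberg over all of them (threshold 0.05, two-sided). Because 1 was added, differences of low genes are understated. The procedure was run on simulated data with independent genes and the same spread in every group. The real libraries differ from that, so the run does not test the calls made here. The 10 genes, the gene lists and the alternatives were chosen with earlier results of these data known. Named were all 10 genes, up to 3 called genes with the largest decrease and 3 with the largest increase per list and T-DC comparison, and the 3 genes nearest in Pearson r to each called member; Tnf, Rela, Nfkbia, Traf4, Traf7, Fasl and Tnfrsf12a, and the genes called between T-mDCs and N-mDCs, were named after their values were seen. Of the lists, 9 genes under the filter were not tested. Promoter windows came from RefSeq.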

Additional observations from a re-analysis of the deposited data

How the results depend on the processing

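The 22 alternatives changed the number of the 10 genes called. Against N-mDCs, Birc2 in T-DCs was not called without a filter, with only the 2 groups compared or with T-mDC samples 2 and 3 averaged. Against T-mDCs, Birc3 in T-DCs was not called with only the 2 groups compared, and Tnfaip3 was called with quantile normalization. The larger changes were as follows. The number lower in T-DCs against N-mDCs (4 as reported) became 9 with array weights, 2 with red cell genes as a covariate, 2 with T-DC sample 1 as the only T-DC sample, and 3 to 7 when 1 sample was left out. That lower against T-mDCs (6) became 2 with T-mDC samples 2 and 3 averaged into 1, 0 with red cell genes as a covariate, 2 with T-DC sample 1 only, 9 with array weights, 4 without a filter, and 2 to 8 without 1 sample. That higher in T-mDCs against N-mDCs (1) became 0 with a pseudocount of 0.1, without a filter, with a filter of FPKM 5, with the replicate block, with T-mDC samples 2 and 3 averaged and with red cell genes, 2 with only the 2 groups compared or T-DC sample 1 only, 4 with array weights, and 0 to 2 without 1 sample. Array weights also gave 1 higher in T-DCs in each T-DC comparison and 2 lower in T-mDCs against N-mDCs, but that fit did not converge, with a weight of 46.6 on T-DC sample 2. The array weight fit called 32.7% of all tested genes lower and 33.9% higher in T-DCs against N-mDCs. Its shares were 37.2% and 40.7% in T-DCs against T-mDCs, and 15.3% and 14.8% in T-mDCs against N-mDCs. Differences that changed sign were, with red cell genes as a covariate, Traf6 (0.13) and Cflar (0.30) in T-DCs minus N-mDCs, Traf3 (0.016) and Birc3 (0.012) in T-DCs minus T-mDCs, and Traf1 (−0.11), Traf3 (−0.21) and Birc3 (−0.40) in T-mDCs minus N-mDCs. Others were Cflar in T-DCs minus N-mDCs with T-DC sample 1 only (0.17), Tnip1 in T-DCs minus T-mDCs with quantile normalization (−0.051), and Traf3 and Birc3 in T-mDCs minus N-mDCs with array weights (−0.043 and −0.069) and Traf3 there with T-mDC samples 2 and 3 averaged (−0.013). Without 1 sample, sign changes fell within ranges of −0.098 to 0.47 for Tnip1 in T-DCs minus T-mDCs and, in T-mDCs minus N-mDCs, −0.027 to 0.46 for Traf1, −0.21 to 0.19 for Traf3 and −0.23 to 0.34 for Birc3. The causes were not tested.

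Over all tested genes, the deviations from the group mean of samples with the same number had an r of −0.475 to 0.269. With 3 libraries per group, this cannot show whether samples of the same number came from the same mice. The replicate block gave 3, 4 and 0 genes in the 3 comparisons. With it, 7.4% and 6.3% of all tested genes were called lower in T-DCs, and 0.141% higher in T-mDCs against N-mDCs. Voom moved the median of all genes from 0.07 to −0.07 in T-DCs minus T-mDCs and from 0.03 to 0.13 in T-mDCs minus N-mDCs. It called 5, 8 and 1 of the 10, beside 11.1%, 11.2% and 0.534% of all tested genes in the same direction. The 10 genes had at least 174 reads each in every library, and whether depth limits a call was not tested.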
